A study of Saccharomyces cerevisiae with 14 samples.

Results

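Budding yeast cells of mating type a stop in G1 when they meet α-factor, the pheromone of α cells, and start the cell cycle together again once it is washed away. The comparison described here sets *ARP8* wild-type cells collected 10 min after release from an α-factor arrest (2 libraries) against *ARP8* wild-type cells of asynchronous cultures (3 libraries). The members were chosen by their sample titles alone and are 5 of the 14 libraries of the series, which was made to ask whether phosphorylation of the *INO80* chromatin remodeller by the Dbf4-dependent kinase affects transcription. In released cells, 20 of 22 genes for DNA synthesis and repair, 5 of 6 for cohesin and the S-phase cyclin genes *CLB5* and *CLB6* were called higher, as were 9 of 11 genes for cell and nuclear fusion during mating. Of the genes of mitosis, 14 of 34 were called lower, and of those of daughter cell separation, 8 of 11. Over all transcripts tested, 7.05% were called higher and 4.55% lower.

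All 5 libraries came from strain yCFK51, haploid cells labelled MATa *his3Δ1* *leu2Δ0* *met15Δ0* *ura3Δ0*. Strain yPB4, used here for the same contrast in other cells, is labelled MATa *his3Δ1* *leu2Δ0* *ura3Δ0* and carries alanine for serine at positions counted from the start of the Arp8 protein, written S65A and S233A (arp8-AA). Asynchronous cultures were grown to exponential phase in YPAD, a rich medium with added adenine. According to the study's methods the arrested cells were grown in YPD, given α-factor again during the arrest, washed and released into pre-warmed YPD, whereas the sample records describe YPAD for every library. Neither source gives a shared day for both kinds of culture. The released and the asynchronous libraries come from separate experiments, so the effect of arrest and release, of the experiment and of the medium cannot be told apart. In bulk RNA, fewer cells of a stage and less RNA per cell cannot be told apart either. Replicates are labelled biological, and p-values measure the spread between these libraries.

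Release from α-factor passes through programmes that are well known. Pheromone binds the receptor Ste2, a G protein and a kinase cascade carry the signal to the transcription factor Ste12, and Ste12 induces genes for arrest, mating projections and fusion. At Start, the factors SBF and MBF switch on the G1/S regulon, which holds the G1 and S cyclins and most replication genes. Histone genes follow in S phase, the *CLB2* cluster in G2 and mitosis, and the Swi5 targets at the passage from mitosis into G1, where daughter cells separate.

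The 5 libraries held between 1864995 and 3233859 estimated counts, and levels are given as CPM, which are counts scaled to the library size after TMM normalisation. Across 5293 transcripts that passed the filter on low counts, the quasi-likelihood F-test of edgeR called 614 at a Benjamini-Hochberg adjusted p under 0.05, or 11.6% of those tested. Of these, 373 were higher (7.05%) and 241 lower (4.55%) in released cells, and 244 (4.61%) and 155 (2.93%) changed at least 2-fold. Without the asynchronous replicate 1, 2 or 3 the test called 303, 229 and 319 transcripts. A fit without a released replicate holds 1 released library, so its p-values rest on the spread between asynchronous libraries alone. Calls kept or lost in such fits, as named below, carry no measure of the spread between released libraries. The median log2 fold change over all transcripts was 0.01, and the share of higher calls was 60.7%. That share was 41.5% with upper-quartile scaling, which shifted the median to -0.12, and 70.7% with library totals, which shifted it to 0.09. *ARP8* itself was at 150, 193 and 193 CPM in asynchronous and at 179 and 137 CPM in released cells, with a log2 fold change of -0.16 (SE 0.19, adjusted p = 0.599, edgeR). *LEU2*, *URA3* and *MET17*, the gene also called *MET15*, had 0 counts in every library, which for *MET17* goes against the label of the *arp8-AA* strain, since it lists no met15 deletion, while the *his3Δ1* allele still gave 57 to 126 counts of *HIS3* in these 5.

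The released libraries stood apart from each other more than the asynchronous ones did. The chi-square per degree of freedom between their counts was 32.3, against at most 11.8 between asynchronous libraries, and 441 transcripts were at least 2-fold apart between them, against 334, 361 and 78 between pairs of asynchronous libraries. Of 47 pheromone response transcripts tested, 35 were above, 5 within and 7 below the asynchronous range in the released replicate 1. In replicate 2, 17 were above, 6 within and 24 below it. Over all 5293 transcripts, 1918 were above and 1941 below it in replicate 1, and 1969 above and 1973 below it in replicate 2. Of the 47, 45 were higher in replicate 1 than in replicate 2 at 10 min, as were 2670 of all 5293. The same order held for 45 of the 47 at 20 min and for 46 of the 47 in *arp8-AA* cells at 10 min. Over all transcripts it held for 2643 and 2573. Of the 8 core histone transcripts, 0 were higher in replicate 1 at either time in *ARP8* cells, or at 10 min in *arp8-AA* cells.

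**Figure D1:**
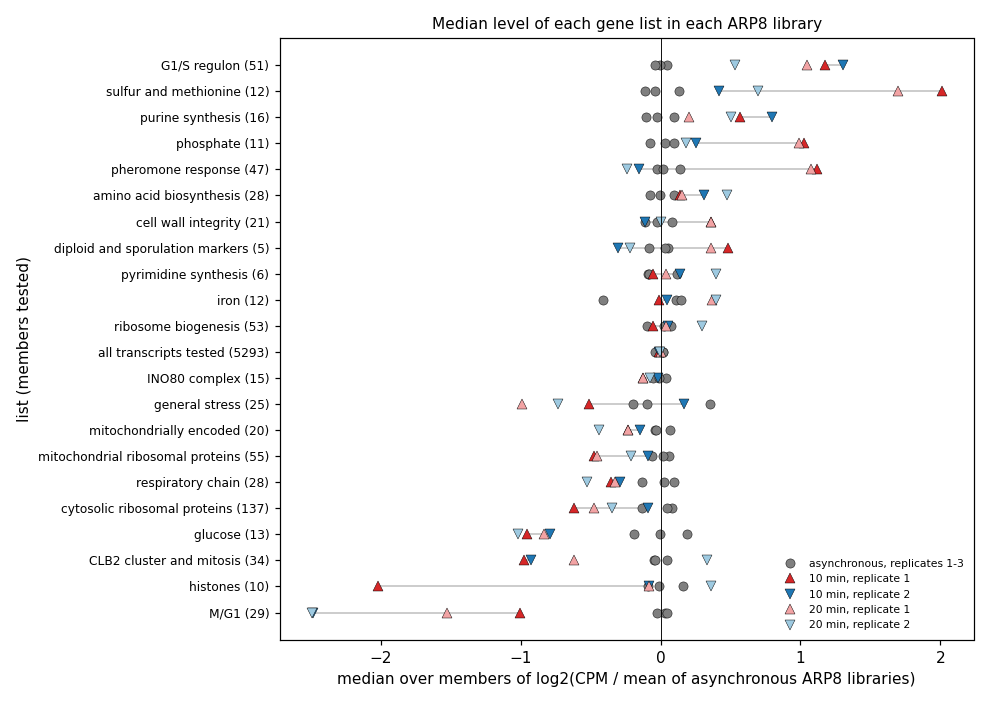
Median over the tested members of each gene list of log2(CPM / mean of the asynchronous *ARP8* libraries), with 1 row per list and 1 point per *ARP8* library. The pheromone list has a median of 1.12 in the released replicate 1 and -0.15 in replicate 2, the histone list -2.02 and -0.08, and the G1/S regulon 1.17 and 1.30.

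**Figure D2:**
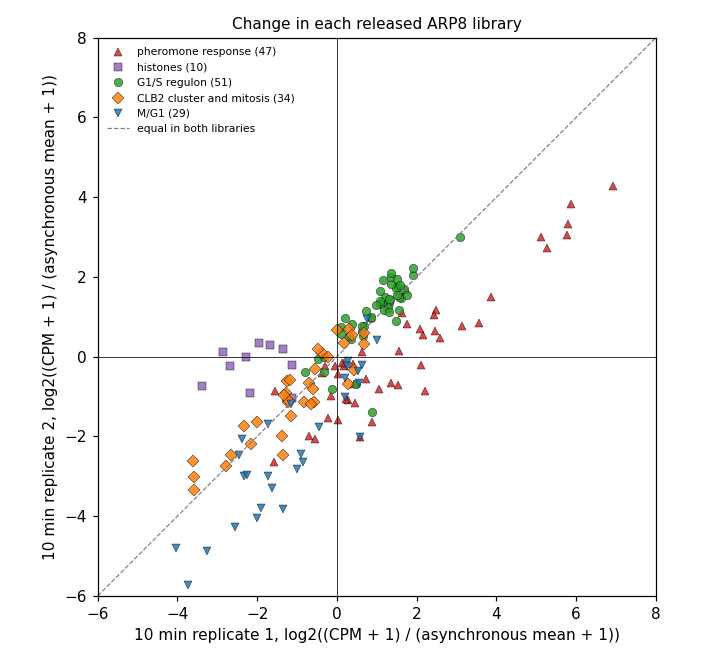
Change of each list member in the released replicate 1 (x axis) and the released replicate 2 (y axis), as log2((CPM + 1) / (asynchronous mean + 1)). G1/S and *CLB2* cluster members lie along the line of equal change, whereas pheromone members lie below it and histones above it.

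The pheromone response list had 48 members, of which 47 were tested, and 13 rose and 1 fell. The background shares are 7.05% and 4.55%. The median log2 fold change was 0.43, against 0.01 over all transcripts. With the released replicate 1 left out the median was -0.20, and with replicate 2 left out it was 1.14. The genes that rose were mostly those for cell and nuclear fusion, of which 9 of 11 rose, with a median of 3.25. The median of this group was 1.71 with the released replicate 1 left out and 4.01 with replicate 2 left out.

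*PRM1* and *PRM2* encode pheromone-regulated membrane proteins, and Prm1 acts in the fusion of the mating partners' plasma membranes. Stretches of their promoters are shown because the pheromone response element TGAAACA, or its reverse complement TGTTTCA, is the site known for Ste12. Sequences here and below are from the RefSeq genome of build R64, read 5′ to 3′ on the strand of the gene, with matches of the named motif in capitals. The stretch of *PRM1* runs from 300 to 101 bases before the start codon, at chrXIV:110617-110816 on the + strand. That of *PRM2* runs from 250 to 101 bases before the start codon, at chrIX:285100-285249 on the - strand.
PRM1: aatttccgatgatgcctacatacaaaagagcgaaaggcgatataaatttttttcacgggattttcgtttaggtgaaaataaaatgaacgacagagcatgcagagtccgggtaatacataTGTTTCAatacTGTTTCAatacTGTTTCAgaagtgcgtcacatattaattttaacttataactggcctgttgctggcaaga
PRM2: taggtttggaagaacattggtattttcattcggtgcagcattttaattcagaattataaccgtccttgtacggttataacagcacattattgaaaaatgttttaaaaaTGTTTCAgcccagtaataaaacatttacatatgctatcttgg
The *PRM1* stretch holds 3 matches and the *PRM2* stretch 1. Within 500 bases before the start codon, on either strand, the motif was found in 30 of 47 promoters of the list (63.8%), in 7 of 11 fusion genes and in 11.9% of the promoters of all transcripts tested. It was in 14.6% of the promoters of transcripts called higher by at least 2-fold and in 14.1% of those called lower, and in 6 of the 11 promoters of the daughter cell separation genes, which were mostly called lower. A match is a run of letters and no measured site. In 17 of 6025 promoters searched, matches of different motifs of the search shared a base. That search held the motifs named here and below and also CACGAAA, whose shares are not reported here.

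*PRM1* was at 7.11, 12.1 and 9.01 CPM in asynchronous cells and at 583 and 103 CPM in released cells. The log2 fold change was 5.19 (SE 0.70, adjusted p = 0.00468, edgeR). *PRM2* was at 2.19, 3.88 and 4.77 CPM against 251 and 37.1 CPM, a log2 fold change of 5.30 (SE 0.84, adjusted p = 0.00839). For both genes replicate 1 lay well above replicate 2. *FIG1*, which encodes a membrane protein needed for calcium influx during mating, was at 1.64, 4.36 and 6.36 CPM against 623 and 98.3 CPM. Its log2 fold change was 6.44 (SE 0.85, adjusted p = 0.00418). *PRM3*, whose product acts in the fusion of the nuclear envelopes, was at 0.547, 0 and 0.53 CPM against 78.4 and 18.4 CPM. From 260 counts in the released and 2 in the asynchronous libraries, *PRM3* was 131-fold higher, with an exact binomial 95% interval of 35.9 to 1089 that covers counting error only (adjusted p = 0.00468). *FIG2*, a mating agglutinin-like wall protein, was at 7.65, 3.88 and 5.30 CPM against 256 and 42.8 CPM. In all 5 transcripts replicate 1 lay above replicate 2. Each released library also lay above every asynchronous one, as for 23.9% of all transcripts tested. That was a condition for naming these 5 among the largest rises and is no result of its own.

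Among the remaining fusion genes, *KAR3*, the kinesin that draws the nuclei together, was the one on which the released libraries were closest, at 116 and 110 CPM against 31.2, 38.8 and 32.3 CPM. The log2 fold change of *KAR3* was 1.75 (SE 0.18, adjusted p = 0.00194). *CIK1*, which encodes the partner of Kar3, was at 39.9, 46.5 and 47.7 CPM against 255 and 102 CPM and rose by 2.01 on the log2 scale (SE 0.35). *FUS2* rose by 3.25 and *KAR5* by 1.97, and *KAR5* was no longer called with the released replicate 1 left out. *FUS1*, the gene of a membrane protein at the projection tip, was at 12.6, 27.1 and 30.2 CPM against 104 and 20 CPM and was not called (log2 fold change 1.42, SE 0.63, adjusted p = 0.174). *RVS161* had a log2 fold change of 0.41 and was not called. For *FUS1* and *RVS161* the released replicate 2 lay within the asynchronous range.

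In the upper parts of the pathway edgeR and DESeq2 called 0 transcripts in either direction from all 5 libraries, and 1, the Gγ subunit gene *STE18*, had an unadjusted p under 0.05. The median log2 fold change was -0.50 over the 4 receptor and G protein genes and -0.18 over the 7 kinase cascade and scaffold genes. For the 4 receptor and G protein genes it was -0.996 without the released replicate 1 and -0.029 without replicate 2. *STE2*, the gene of the α-factor receptor, was at 374, 334 and 325 CPM in asynchronous and at 294 and 118 CPM in released cells, so that both released libraries lay below every asynchronous one (log2 fold change -0.73, SE 0.34, adjusted p = 0.200). *GPA1*, the Gα subunit gene, was at 125, 137 and 136 CPM against 156 and 62.5 CPM, above in replicate 1 and below in replicate 2. *FUS3*, the gene of the kinase at the end of the cascade, was at 38.3, 64.5 and 61.0 CPM against 66.8 and 25.0 CPM, with the same order.

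Of the pathway's transcription factors and their inhibitors, *KAR4* rose and *DIG1* fell. *KAR4*, a factor that works with Ste12 at karyogamy genes, was at 61.8, 95.0 and 85.9 CPM against 345 and 131 CPM (log2 fold change 1.57, SE 0.38, adjusted p = 0.037) and lost its call without the released replicate 1. *DIG1*, which encodes an inhibitor of Ste12, was at 88.0, 74.7 and 56.7 CPM against 23.7 and 10.8 CPM, a log2 fold change of -2.08 (SE 0.37, adjusted p = 0.0124). *STE12* itself was at 39.4, 32.0 and 36.0 CPM against 47.8 and 31.4 CPM, and was not called (log2 fold change 0.16). The *DIG1* groups did not overlap, whereas those of *STE12* did.

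Genes that end the pheromone signal were split between the released libraries. *BAR1*, the gene of the protease that degrades α-factor, was at 306, 364 and 364 CPM against 632 and 109 CPM, with a log2 fold change of 0.13 (SE 0.57, adjusted p = 0.905). *SST2*, the gene of the GTPase activator of the G protein, was at 190, 246 and 233 CPM against 372 and 151 CPM. *FAR1*, whose product arrests the cycle and which stands in both the pheromone and the M/G1 list, was at 214, 270 and 292 CPM against 386 and 63.1 CPM. For all 3 genes replicate 1 was above and replicate 2 below every asynchronous library, and edgeR called none of the 3. Of the other members that rose, *ASG7*, an a-specific gene, had a log2 fold change of 2.87, *AFR1*, a regulator of receptor signalling and projection shape, one of 1.88, and *PRM6*, a membrane protein gene induced by pheromone, one of 4.96 (SE 0.77, adjusted p = 0.00797). *ASG7* and *AFR1* lost the call without the released replicate 1. *AGA1*, which encodes the anchor of the a-agglutinin, was at 16.9, 5.82 and 8.48 CPM against 100 and 18.4 CPM and was not called by edgeR (adjusted p = 0.0576).

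**Figure D3:**
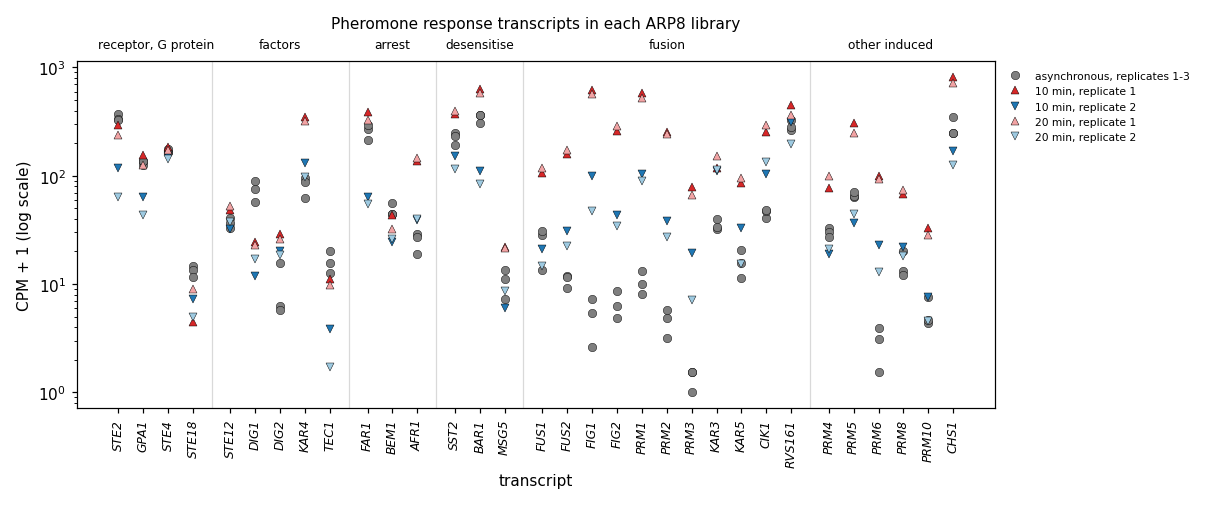
CPM + 1 on a log axis of pheromone response transcripts, grouped by role, with 1 point per *ARP8* library. The fusion genes *FIG1*, *FIG2*, *PRM1*, *PRM2* and *PRM3* lie above the 3 asynchronous libraries in every synchronised library, whereas *BAR1*, *SST2* and *FAR1* lie above them in replicate 1 and below them in replicate 2 at 10 min.

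At 20 min after release, values kept the order of the replicates. *FIG1* was at 570 CPM in replicate 1 and at 46.4 CPM in replicate 2, and *PRM1* was at 524 and 89.3 CPM. *BAR1* was at 584 and 83.9 CPM. These libraries are set against the same asynchronous cultures and are therefore given as levels only.

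The mating type of the cells was checked with marker genes. Of the a-cell markers, *STE2*, *STE6*, *BAR1*, *ASG7* and *MFA1*, which encodes the a-factor precursor, were read in all 5 libraries, with between 18 counts (ASG7) and 1935 counts (STE6), whereas *AGA2*, the binding subunit of the a-agglutinin, had 1 to 4 counts. Of the α-cell markers, *MF(ALPHA)1* had 0 counts in all 5 libraries, *MF(ALPHA)2* had 0 to 3 and *SAG1* 0 to 8. *STE3*, the gene of the a-factor receptor of α cells, was at 1.64, 0.97 and 1.06 CPM in asynchronous cells and at 7.77 and 7.61 CPM in released cells. *STE3* was called higher, by 2.63 on the log2 scale (SE 0.53, adjusted p = 0.0188), from 2 or 3 counts in each asynchronous library and 20 and 24 counts in the released ones. It lost the call without the released replicate 1. Of 10 markers of diploid or sporulating cells, 5 passed the filter and 0 were called by edgeR or DESeq2, with 2 at an unadjusted p under 0.05, both higher.

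Most of the G1/S regulon rose, and to near the same level in both released libraries. The list had 54 members, of which 51 were tested, and 34 rose and 0 fell, against background shares of 7.05% and 4.55%. The median log2 fold change was 1.27. It was 1.34 with the released replicate 1 left out and 1.19 with replicate 2 left out. At an unadjusted p under 0.05 the count lower was also 0, as it was with DESeq2. Among the genes for DNA synthesis and repair 20 of 22 rose, among those for cohesin 5 of 6, among cyclins and regulators 6 of 15, and among genes for bud and cell wall 3 of 8. CPM of both released libraries lay above every asynchronous library for 40 of the 51, which was the case for 23.9% of all transcripts tested.

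*CLB6* and *CDC45* stood at the top of the list. *CLB6* encodes an S-phase cyclin and *CDC45* a part of the replicative helicase. Stretches of their promoters are shown for the MBF site, the MluI cell cycle box ACGCGT, which reads the same on both strands. The stretch of *CLB6* runs from 450 to 301 bases before the start codon, at chrVII:706802-706951 on the - strand, and that of *CDC45* from 250 to 101 bases, at chrXII:346042-346191 on the - strand.
CLB6: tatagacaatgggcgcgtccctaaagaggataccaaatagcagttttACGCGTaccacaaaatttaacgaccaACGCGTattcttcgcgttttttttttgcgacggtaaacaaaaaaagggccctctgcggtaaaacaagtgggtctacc
CDC45: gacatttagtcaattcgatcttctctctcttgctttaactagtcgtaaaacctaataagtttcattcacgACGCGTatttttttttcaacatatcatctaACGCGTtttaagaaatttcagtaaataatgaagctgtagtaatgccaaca
Each stretch holds 2 matches. ACGCGT was found in 33 of 51 promoters of the list (64.7%), in 19 of the 22 DNA synthesis genes, in 67 of 240 promoters of transcripts called higher by at least 2-fold (27.9%) and in 8 of 149 of those called lower by at least 2-fold (5.37%). All transcripts tested had it in 5.58%. CGCGAAA, the cell cycle box of SBF, was found on either strand in 7 of 15 promoters of cyclins and regulators and in 6.04% of all.

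*CLB6* was at 6.56, 13.1 and 14.3 CPM in asynchronous and at 103 and 97.3 CPM in released cells, a log2 fold change of 3.15 (SE 0.28, adjusted p = 0.00147). *CDC45* was at 40.4, 40.2 and 55.1 CPM against 173 and 215 CPM, a log2 fold change of 2.12 (SE 0.20, adjusted p = 0.00172). In both genes the released libraries lay close together and above the asynchronous ones. *RNR1*, the gene of the large subunit of ribonucleotide reductase, was at 482, 417 and 419 CPM against 1415 and 1435 CPM. Its log2 fold change was 1.71 (SE 0.15, adjusted p = 0.00147). *POL30*, the gene of the sliding clamp PCNA, rose by 1.73, *PRI2* of primase by 1.80, and *POL1*, the catalytic subunit of polymerase α, by 1.25 on the log2 scale. The exceptions among the 22 DNA synthesis genes were *PRI1*, with a log2 fold change of -0.14, and *CDC21* of thymidylate synthesis, with 0.44.

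Cohesin holds sister chromatids together from S phase to anaphase. *MCD1*, its cleavable subunit gene, was at 142, 191 and 199 CPM against 673 and 739 CPM (log2 fold change 2.01, SE 0.18, adjusted p = 0.00147). *SMC3* rose by 1.63 (SE 0.16). *PDS1*, which encodes securin, was at 20.2, 24.7 and 27.6 CPM against 26.0 and 36.5 CPM and was not called. The *MCD1* and *SMC3* groups were separate, and those of *PDS1* overlapped.

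The cyclins were not alike. *CLB5*, the other S-phase cyclin gene, was at 25.1, 52.4 and 59.9 CPM against 140 and 163 CPM (log2 fold change 1.74, SE 0.30, adjusted p = 0.0118), and *PCL1*, a G1 cyclin of the kinase Pho85, rose by 1.70 (SE 0.23). The G1 cyclin *CLN1* was at 39.9, 29.6 and 32.9 CPM against 45.0 and 60.9 CPM, above every asynchronous library but not called (log2 fold change 0.65, SE 0.24, adjusted p = 0.115). *CLN2* was at 32.3, 15 and 7.42 CPM against 29.1 and 26.6 CPM, and its groups overlapped (log2 fold change 0.62, SE 0.51, adjusted p = 0.448). *TOS4*, *SPT21*, an activator of histone genes, and *SWE1*, the kinase gene that delays mitosis, rose by 1.81, 1.57 and 1.17. *WHI5*, which encodes the repressor of SBF, had a log2 fold change of -0.35 and was not called. Of the wall genes, *MNN1* rose by 1.41, *CSI2* by 1.39 and *OCH1* by 0.75. *MNN1* was called in all 17 alternative runs of the fit, and *CSI2* and *OCH1* in 12 each.

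At 20 min after release, *CLB6* was at 53.2 and 23.8 CPM, *RNR1* at 1309 and 634 CPM and *MCD1* at 492 and 193 CPM in replicates 1 and 2. The order of the replicates in the G1/S list was not that of 10 min. Of its 51 members, 15 were higher in replicate 1 than in replicate 2 at 10 min and 46 at 20 min.

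Histones package the newly made DNA. Of 10 histone transcripts tested edgeR called 0, with a median log2 fold change of -0.71, and the released libraries lay far apart. At an unadjusted p under 0.05 there were 2, both lower, and DESeq2 called 1. *HHF1*, a histone H4 gene, was at 1056, 1195 and 1187 CPM in asynchronous cells and at 157 CPM in the released replicate 1 and 1236 CPM in replicate 2 (log2 fold change -0.70, SE 0.66, adjusted p = 0.512). *HTA1*, a histone H2A gene, was at 979, 1009 and 1021 CPM against 258 and 1268 CPM. For all 8 core histone transcripts replicate 1 lay below every asynchronous library, as for 1941 of all 5293 transcripts. In replicate 2, 3 lay above the asynchronous range, 3 within it and 2 below it, against 1969, 1351 and 1973 of all. The median of the 10 histone transcripts was -2.08 without the released replicate 2 and -0.09 without replicate 1. The core histones at 20 min were at medians of -0.08 in replicate 1 and 0.58 in replicate 2 relative to asynchronous cells, on the log2 scale. Paired histone genes share up to 40.8% of their 31-base words with a copy, and the split of reads between such copies is uncertain.

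Calls among mitotic genes were mostly lower. The *CLB2* cluster and further genes of mitosis had 34 members, all tested, of which 1 rose and 14 fell, against background shares of 7.05% and 4.55%. The median log2 fold change was -0.89, and 12 fell when either released library was left out. Of the genes for bud neck and cytokinesis 7 of 9 fell, of mitotic cyclins and their factors 3 of 8, of mitotic exit and checkpoint 4 of 10, and of spindle genes 0 of 7, which had a median of 0.49. The forkhead element GTAAACA was found, on either strand, in 17 of the 34 promoters, in 6 of the 11 promoters of the fusion genes and in 10.6% of all.

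*CLB1*, a mitotic cyclin gene, was at 101, 154 and 148 CPM in asynchronous and at 10.1 and 20.9 CPM in released cells, a log2 fold change of -3.07 (SE 0.34, adjusted p = 0.00228). *SWI5*, the gene of the factor that acts on leaving mitosis, was at 35.0, 21.8 and 18.6 CPM against 1.17 and 1.59 CPM (log2 fold change -4.11, SE 0.52, adjusted p = 0.0032). *HOF1*, which acts at the bud neck in cytokinesis, was at 61.2, 68.8 and 70.0 CPM against 4.66 and 7.29 CPM (log2 fold change -3.43, SE 0.27, adjusted p = 0.00119). In all 3 replicate 1 was the lower of the released libraries. Separate groups were a condition for naming these 3 among the largest falls, so their separation is no result of its own. *CLB2*, the main mitotic cyclin, fell by 1.08 (SE 0.24, adjusted p = 0.0313), and lost the call without the released replicate 1. *CLB3* was at 58.5, 69.8 and 62.5 CPM against 72.6 and 80.5 CPM, above every asynchronous library but not called. *CHS2*, the septum chitin synthase gene, fell by 2.65, *CDC20*, the activator of anaphase, by 1.79 and *CDC5*, the polo kinase, by 1.12. *BIM1*, which encodes a microtubule plus-end protein, was the 1 member that rose (log2 fold change 0.67), and it was not called when either released library was left out.

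At 20 min these genes differed between replicates. *CLB1* was at 28.2 and 179 CPM, *SWI5* at 6.36 and 22 CPM and *HOF1* at 3.82 and 38.5 CPM in replicates 1 and 2. The second value of *CLB1* lay above every asynchronous library.

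**Figure D4:**
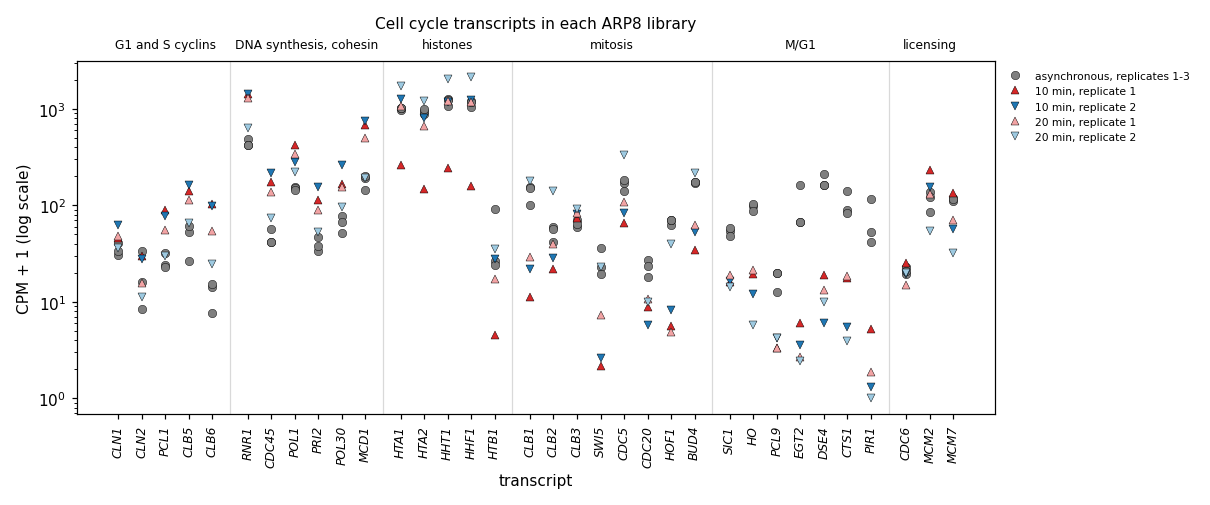
CPM + 1 on a log axis of cell cycle transcripts, grouped by the stage of their peak, with 1 point per *ARP8* library. *CLB6*, *CDC45* and *MCD1* lie above, and *SWI5*, *HOF1*, *EGT2* and *DSE4* below, the 3 asynchronous libraries in both 10 min libraries, whereas *HTA1* and *HHF1* are low in the 10 min replicate 1 and not in the 10 min replicate 2.

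The M/G1 list had 31 members, of which 29 were tested, and 1 rose and 13 fell, against background shares of 7.05% and 4.55%. Its median was -1.70, the lowest of the lists. The median was -2.45 without the released replicate 1 and -1.20 without replicate 2. Of 29 members, 26 were higher in the released replicate 1 than in replicate 2, as were 2670 of all 5293 transcripts. Of the 11 genes for daughter cell separation 8 fell, and both released libraries lay below every asynchronous library for all 11, which was the case for 24.1% of all transcripts tested.

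*EGT2*, an early G1 gene of cell separation, is shown with its promoter for ACCAGC, the core of the Swi5 site, or its reverse complement GCTGGT. The stretch runs from 400 to 151 bases before the start codon, at chrXIV:23648-23897 on the + strand.
EGT2: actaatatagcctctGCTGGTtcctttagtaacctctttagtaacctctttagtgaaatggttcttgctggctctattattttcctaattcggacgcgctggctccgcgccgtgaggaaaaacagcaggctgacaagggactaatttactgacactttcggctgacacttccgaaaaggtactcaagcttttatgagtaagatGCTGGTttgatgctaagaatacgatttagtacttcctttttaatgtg
The stretch holds 2 matches. The motif was found in 7 of the 11 promoters of the separation genes, in 31 of 149 promoters of transcripts called lower by at least 2-fold (20.8%) and in 13.2% of all. *EGT2* was at 162, 65.4 and 66.3 CPM in asynchronous and at 5.05 and 2.54 CPM in released cells, a log2 fold change of -4.69 (SE 0.61, adjusted p = 0.00377). *DSE4*, a glucanase gene, was at 211, 163 and 162 CPM against 17.9 and 5.07 CPM (log2 fold change -3.98, SE 0.46, adjusted p = 0.0024). *CTS1*, the chitinase gene, was at 140, 88.7 and 82.1 CPM against 16.7 and 4.44 CPM (log2 fold change -3.31, SE 0.52, adjusted p = 0.00816). Replicate 2 was the lower of the released libraries for all 3. Their groups were separate, which was a condition for naming them among the largest falls and is no result of its own. *DSE1* was at 405, 459 and 439 CPM against 168 and 29.8 CPM and missed the call (adjusted p = 0.0575). *PIR1*, a wall protein gene, was at 115, 52.4 and 40.3 CPM against 4.27 and 0.317 CPM, a log2 fold change of -4.97 (SE 0.81, adjusted p = 0.00945).

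Among regulators of Start, *SIC1*, whose product inhibits the S-phase cyclins, was at 53.6, 57.2 and 47.2 CPM against 15.1 and 15.5 CPM (log2 fold change -1.76, SE 0.22, adjusted p = 0.00372). *HO*, the gene of the mating-type endonuclease, fell by 2.70, *PCL9* by 2.53 and *RME1*, a repressor of meiosis that also promotes G1 cyclin expression, by 2.26. *SWI4*, the DNA-binding part of SBF, rose by 0.89 (SE 0.22, adjusted p = 0.0388) and lost the call when either released library was left out. Of the 8 origin licensing genes, 0 were called by edgeR or DESeq2 and 1, *MCM2*, had an unadjusted p under 0.05. The median of the 8 was -0.28 without the released replicate 1 and 0.43 without replicate 2. All 8 were above the asynchronous range in replicate 1, as were 1918 of all 5293 transcripts. In replicate 2, 6 of the 8 were below it, 1 within it and 1 above it, against 1973, 1351 and 1969 of all. *MCM7*, of the replicative helicase, was at 110, 119 and 115 CPM against 133 and 56.1 CPM, and *MCM2* at 84.2, 136 and 121 CPM against 231 and 154 CPM (log2 fold change 0.77, SE 0.25, adjusted p = 0.0796).

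Genes of biosynthesis also differed between released and asynchronous cells. Of 16 genes of purine and one-carbon synthesis, 7 rose and 0 fell, with a median log2 fold change of 0.68. Over all transcripts 7.05% were called higher. The median of the 16 genes was 0.82 without the released replicate 1 and 0.57 without replicate 2. *ADE17*, which encodes an enzyme of the last steps of inosinate synthesis, is shown for TGACTC, the core of the site of the amino acid control factor Gcn4, or its reverse complement GAGTCA. The stretch runs from 330 to 151 bases before the start codon, at chrXIII:509431-509610 on the - strand.
ADE17: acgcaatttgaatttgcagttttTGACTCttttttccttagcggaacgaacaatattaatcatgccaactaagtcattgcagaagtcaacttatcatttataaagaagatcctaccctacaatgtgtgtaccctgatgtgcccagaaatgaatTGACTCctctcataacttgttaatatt
The stretch holds 2 matches. The motif was found in 9 of 10 promoters of the de novo purine pathway, in 8 of 8 of arginine synthesis and in 12.9% of all, and in 12.1% of those called higher by at least 2-fold. These letters do not tell which factor binds there, and binding was not measured. *ADE17* was at 82.0, 86.8 and 95.9 CPM against 670 and 944 CPM, a log2 fold change of 3.21 (SE 0.19, adjusted p = 0.000443). *ADE13* rose by 1.39 (SE 0.17) and *ADE1* by 1.07 (SE 0.19), and the groups of all 3 were separate. At 20 min, *ADE17* was at 269 and 317 CPM. The study's methods name a medium with added adenine for the asynchronous cultures and one without it for the release, and the part of the medium in these values was not tested.

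Of the 8 arginine genes tested, 4 rose and 0 fell, against 7.05% and 4.55% of all transcripts. Both released libraries lay above every asynchronous one for all 8, as for 23.9% of all transcripts. *ARG1*, of argininosuccinate synthesis, was at 29.0, 29.6 and 28.6 CPM against 165 and 181 CPM (log2 fold change 2.59, SE 0.16, adjusted p = 0.000443). *ARG7* rose by 1.14 (SE 0.19). Of 20 further amino acid genes, 3 rose and 1 fell. *HIS5* rose by 1.62 and *HIS4* by 1.08, both of histidine synthesis, and *ILV5*, of valine and isoleucine synthesis, fell by 1.11 and lost the call when either released library was left out.

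Sulfur assimilation followed the released replicate 1. Of 12 genes tested, 5 rose and 0 fell, against 7.05% and 4.55% of all transcripts, with a median of 1.40. All 12 were higher in replicate 1 than in replicate 2, as were 2670 of all 5293 transcripts. The median was 0.42 without the released replicate 1 and, over 13 genes, 2.06 without replicate 2. *MET14*, the gene of adenylylsulfate kinase, was at 36.1, 35.9 and 40.3 CPM against 233 and 74.5 CPM (log2 fold change 2.05, SE 0.42, adjusted p = 0.0216). *MET2* was at 9.29, 9.70 and 12.7 CPM against 102 and 17.1 CPM, and *MET6*, methionine synthase, at 411, 483 and 485 CPM against 1474 and 744 CPM. *MET17*, the gene of the pathway deleted in this strain, had 0 counts throughout, as given above.

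Calls over all transcripts were 7.05% higher and 4.55% lower. Of 11 phosphate genes tested, 4 rose and 0 fell. Their median log2 fold change was 0.86, and it was 0.27 without the released replicate 1 and 1.06 without replicate 2. *PHO8*, an alkaline phosphatase gene, was at 134, 146 and 154 CPM against 294 and 282 CPM (log2 fold change 1.01, SE 0.14, adjusted p = 0.00586), *PHM6* rose by 2.17 and *VTC3*, of polyphosphate synthesis, by 0.98. *PHO84*, a phosphate transporter gene with an annotated antisense RNA whose reads cannot be told apart from its own, was at 3.83, 2.42 and 4.24 CPM against 38.8 and 7.61 CPM. *PHO84* and *VTC3* lost the call without the released replicate 1. Of 12 iron uptake genes, 0 rose and 3 fell: *FET3*, the ferroxidase gene, fell by 1.65 (SE 0.18), its permease partner *FTR1* by 0.68 and *CTH1* by 0.87. Of 6 pyrimidine genes tested edgeR called 0, with 1 at an unadjusted p under 0.05, and DESeq2 called 1. Of 13 genes of hexose transport and glucose repression, 0 rose and 3 fell. Their median was -0.64, and it was -1.01 without the released replicate 1 and -0.68 without replicate 2. *HXT1*, a transporter gene induced by high glucose, was at 288, 412 and 391 CPM against 94.8 and 79.9 CPM (log2 fold change -2.04, SE 0.20, adjusted p = 0.00194). *SUC2*, of invertase, fell by 1.42.

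**Figure D5:**
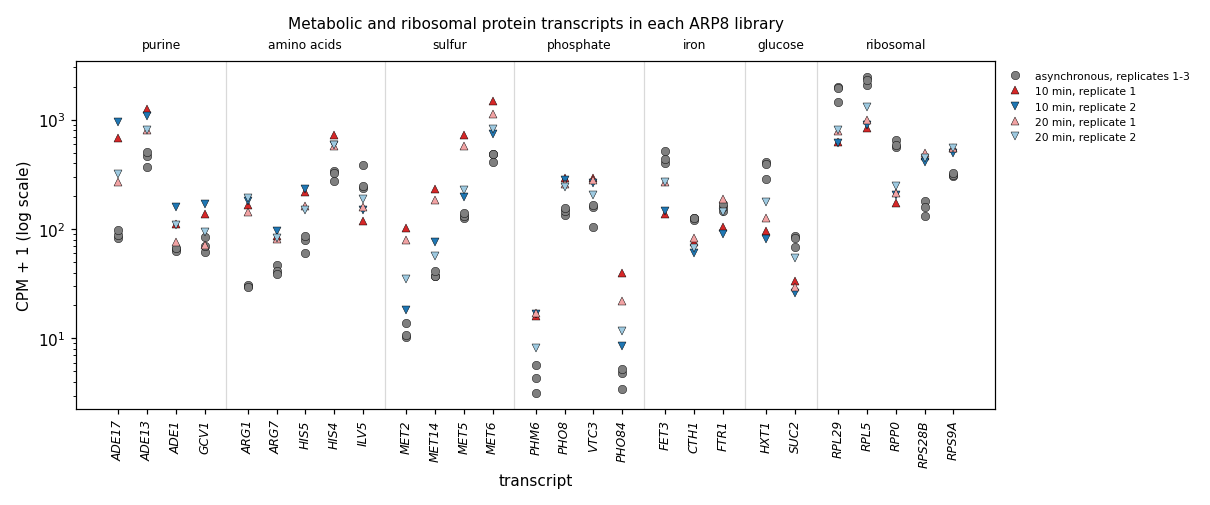
CPM + 1 on a log axis of metabolic and ribosomal protein transcripts, grouped by pathway, with 1 point per *ARP8* library. *ADE17* and *ARG1* lie above the 3 asynchronous libraries in both 10 min libraries, and the sulfur genes are highest in replicate 1 at both times.

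Of 21 cell wall integrity genes, 3 rose and 0 fell, against 7.05% and 4.55% of all transcripts. *GSC2*, the gene of the inducible glucan synthase subunit, was at 248, 215 and 259 CPM against 2636 and 1360 CPM (log2 fold change 3.07, SE 0.28, adjusted p = 0.00147). *CHS3*, a chitin synthase gene, rose by 1.10 and *MKK2*, a kinase of the pathway, by 0.94. *SLT2*, the gene of its terminal kinase, was at 101, 91.1 and 82.7 CPM against 363 and 84.4 CPM and was not called. The median of the list was 0.14, and it was -0.11 without the released replicate 1 and 0.31 without replicate 2.

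Of 25 general stress genes tested, 2 rose and 3 fell, with a median of -0.16. The count of rises is near the 7.05% of all transcripts called higher, and 4.55% of all were called lower. *SSA4*, an inducible Hsp70 gene, was at 103, 86.8 and 73.7 CPM against 336 and 1585 CPM, and here replicate 2 was the higher (log2 fold change 3.46, SE 0.55, adjusted p = 0.00883). *NQM1*, a transaldolase gene, was at 14.2, 7.27 and 11.1 CPM against 129 and 48.5 CPM, with replicate 1 the higher. *MSN4*, the gene of a stress transcription factor, fell by 1.52, *HSP42* by 1.43 and *GLC3*, of glycogen branching, by 1.22. The median of the list was 0.20 without the released replicate 1 and -0.70 without replicate 2.

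Of 137 cytosolic ribosomal protein transcripts, 2 rose and 29 fell, against background shares of 7.05% and 4.55%, with a median of -0.33. The median was -0.07 without the released replicate 1 and -0.61 without replicate 2. *RPL29* was at 1440, 1994 and 1958 CPM against 628 and 616 CPM (log2 fold change -1.51, SE 0.18, adjusted p = 0.00309). *RPL5* fell by 1.39 and *RPP0*, the stalk protein gene, by 1.64. *RPS28B* rose by 1.5 and *RPS9A* by 0.75. Of the 5 stalk protein genes 4 fell. Of 55 mitochondrial ribosomal protein transcripts 0 rose and 3 fell. Their median was -0.22, and it was -0.09 without the released replicate 1 and -0.47 without replicate 2. Of 53 genes of ribosome biogenesis 0 rose and 2 fell, of 28 nuclear respiratory chain genes 0 rose and 3 fell, and of 20 mitochondrially encoded transcripts 0 rose and 1 fell. Of the 15 *INO80* subunit genes 0 were called by edgeR or DESeq2, with 1 at an unadjusted p under 0.05, a median of -0.06 and a range from -0.94 to 0.23.

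Short coding sequences were lower in released cells. Ribosomal proteins had a median coding length of 432 bases and histones one of 399 bases, against 1263 bases over all transcripts tested. Transcripts of at most 500 coding bases had a median log2 fold change of -0.21, with 2.29% called higher and 8.72% called lower. Those over 3000 bases had one of 0.13, with 11.7% called higher and 1.70% called lower. The median difference between the released replicates 1 and 2 also moved with length, from -0.34 in the shortest to 0.27 in the longest class. The part of coding length in the results for ribosomal proteins and histones was not tested. With limma on the deposited TPM, which use effective lengths, the higher share of calls was 83.8% and the median shifted to 0.32. In long transcripts, effective length was 168, 170 and 170 bases below length in the asynchronous libraries. In the released libraries it was 152 and 156 bases below. The part of this difference in the length trend and in the TPM shift was not tested.

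Outside the lists, the 12 largest rises and falls by the naming rule were led by *IME4*. *IME4*, the gene of the RNA methyltransferase of meiosis, lies at chrVII:142246-144048 on the + strand and overlaps the antisense RNA *RME2*. It had 0 counts in all 6 asynchronous libraries of the series and 78 to 796 counts in all 8 synchronised ones. Its level in released cells was 182 and 32 CPM, and both libraries were at least 19.5-fold higher than a floor of 3 counts in each asynchronous library allows. It was the only transcript with 0 counts in all asynchronous and at least 50 counts in every synchronised library. The counts were made with default settings, which use no strand, so reads of *IME4* and *RME2* cannot be told apart, and the part of the counting in this difference was not tested. *YCL074W*, a pseudogene by its annotation at chrIII:2824-3750 on the + strand, had 0 counts in the 3 asynchronous *ARP8* libraries and was at 18.6 and 7.29 CPM, in both at least 4.45-fold higher than the same floor.

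Of the other large rises, *YIL082W* was at 3.28, 1.94 and 1.59 CPM against 169 and 100 CPM (log2 fold change 5.88, SE 0.37, adjusted p = 0.000443). Its identifier matched no RefSeq gene, so whether its reads are shared with copies elsewhere was not checked. *RTA1* rose by 4.33 (SE 0.52), *BNA2*, of the NAD synthesis pathway and overlapping *YJR079W* on the same strand, by 4.02 (SE 0.52), and *YLL056C* by 3.59 (SE 0.32). Of the large falls, *WSC4*, a wall sensor family gene, was at 12.6, 11.1 and 6.89 CPM against 0 and 0.317 CPM. From 59 counts in the asynchronous and 1 in the released libraries it was 58.5-fold higher in asynchronous cells, with an exact binomial 95% interval of 10.1 to 2349 that covers counting error only (adjusted p = 0.007, edgeR). *HSP30*, a plasma membrane heat shock gene, was at 142, 56.7 and 41.9 CPM against 5.44 and 1.90 CPM. *RGI1* was at 73.3, 45.6 and 40.3 CPM against 4.27 and 3.49 CPM, and *SNF11*, a subunit gene of the SWI/SNF remodeller, at 12.6, 9.70 and 14.3 CPM against 0.777 and 1.27 CPM. *STP4* fell by 3.35 and lost the call when either released library was left out. *HSP30* lost it without the released replicate 2. The other members of these groups of 12 are given with their lists.

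The same contrast was made in *arp8-AA* cells, which share no library with the comparison but come from the same 2 kinds of culture. There, 724 of 5356 transcripts were called (13.5%), 428 higher (7.99%) and 296 lower (5.53%). Of the calls, 414 were shared, 67.4% of those in *ARP8* and 57.2% of those in *arp8-AA* cells, and all 414 had the same direction. Of the 611 *ARP8* calls tested in *arp8-AA* cells, 610 had the same sign. Since both genotypes carry the same confounding, this repeats the contrast and not its separation from the experiment. *PRM1* was at 4.56, 13.9 and 19.4 CPM against 505 and 117 CPM in *arp8-AA* cells (log2 fold change 4.66, SE 0.72, adjusted p = 0.012). *CLB6* was at 4.94, 19.6 and 14.6 CPM against 118 and 153 CPM (log2 fold change 3.45, SE 0.41, adjusted p = 0.00634), and *EGT2* at 81.4, 73.4 and 61.1 CPM against 1.57 and 2.63 CPM (log2 fold change -4.94, SE 0.30, adjusted p = 0.00114). *ADE17* was at 80.6, 88.4 and 102 CPM against 813 and 937 CPM.

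In *arp8-AA* cells 12 pheromone transcripts rose and 1 fell, 35 of 50 G1/S transcripts rose and 0 fell, 15 *CLB2* cluster transcripts fell and 0 rose, and 10 M/G1 transcripts fell and 2 rose. The difference of the contrast between the genotypes was tested as an interaction over the 10 libraries. It called 0 of 5439 transcripts with edgeR, of which 59 had an unadjusted p under 0.05, and 0 with DESeq2, of which 35 did. A p that misses the threshold does not show that the genotypes responded alike.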

How the data were processed

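RNA-seq libraries of *ARP8* and *arp8-AA* cells were compared with groups and replicate numbers taken from the sample labels. The authors quantified reads with kallisto (version 0.48) against the R64 transcriptome and deposited, per library, estimated counts, which need not be whole, together with TPM, the same counts divided by effective length. Of 6612 transcripts, 5929 matched a RefSeq gene by identifier, and 5908 of these had the same coding length. Libraries were directional, but kallisto was run with default parameters, which use no strand.

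Estimated counts were rounded, and low transcripts were removed with the filterByExpr function at a minimum count of 10. TMM factors lay between 0.922 and 1.08, and the test was edgeR's quasi-likelihood F-test (edgeR 4.0.16, R 4.3.3) within each genotype, with adjusted p under 0.05 as the threshold. Folds against a group at 0 used a floor of 3 counts in each library of that group. The study's model holds the experimental batch as a factor. The labels name no batch shared by released and asynchronous cultures, so the main test has no batch term. Replicate numbers served as a block in an alternative run only. Alternatives, computed also with DESeq2 1.42.0 and limma 3.58.1, covered scaling, the filter, tool, unit and left-out libraries. Other scripts used Python 3.11.15 and matplotlib 3.10.9. The fitting code was checked on simulated data. Of simulated log2 fold changes of 1, it called 41 of 99 in the *ARP8* contrast and 10 of 99 in the interaction. Of those of 2, it called 89 of 97 and 82 of 100. Smaller changes can therefore be missed.

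The members and the gene lists were chosen with earlier results of these data known. By the naming rule the text gives the 12 largest rises and the 12 largest falls among called transcripts with separate groups, a mean of at least 10 CPM in the higher group and under 50% of their 31-base words in another coding sequence. It also gives any member of the pheromone, G1/S, M/G1 and *CLB2* lists, up to 4 members with the largest changes of each other list, and the strain markers. The share of 31-base words was not available for *YIL082W* and *YCL074W*, which were let pass without that check. Some genes that the rule names are not reported here. *HIS4*, *MKK2*, *CHS3*, *RPL29*, *RPL5*, *SUC2*, *HHF1*, *HTA1*, *VTC3*, *ADE1* and *MET6* fell outside the rule and were chosen after their values were seen. Motifs were searched in the 500 bases before the start codon of 6025 genes.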

Additional observations from a re-analysis of the deposited data

How the results depend on the processing

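Released and asynchronous cells were compared from 2 and 3 libraries of separate experiments, so limits of few libraries apply throughout. Of the 614 calls in *ARP8* cells, 0 changed sign in any alternative. Of the 148 named transcripts tested, 109 were called, 109 of these kept their sign in every alternative and 56 also kept the call. DESeq2 called 747 transcripts.

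At an adjusted p under 0.01, *ARP8* cells had 117 transcripts higher and 65 lower, 116 and 62 of them by at least 2-fold, and *arp8-AA* cells had 71, 51, 67 and 48. Upper-quartile scaling gave 373 lower against 241, and library totals without composition factors gave 476 higher and 197 lower. With limma on log2(TPM + 1) 775 were higher and 150 lower in *ARP8* cells, 443 and 97 by at least 2-fold, and 1192 and 172 in *arp8-AA* cells, 477 and 84 by at least 2-fold. A fit over all 14 libraries gave 385 lower. The same replicate numbers in the released and asynchronous groups come from separate experiments and do not pair the libraries. Their deviations from the group means correlated at 0.155 for number 1 and 0.171 for number 2. The 2 released libraries deviate in mirror image, so these values are not independent. Asynchronous 1 with released 2 gave -0.155, and asynchronous 2 with released 1 gave -0.171. With the replicate block 455 were higher and 428 lower in *ARP8* cells, 292 and 288 by at least 2-fold, and 299 were higher and 225 lower in *arp8-AA* cells, 223 and 166 by at least 2-fold. The interaction called 0 transcripts under every alternative run. Leaving out 1 library gave 131 to 420 higher and 98 to 295 lower in *ARP8* cells, 130 to 275 and 98 to 186 by at least 2-fold. In *arp8-AA* cells it gave 48 to 750 higher and 43 to 573 lower, 48 to 349 and 42 to 256 by at least 2-fold. The cause of these differences was not tested.

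Log2 fold changes that changed sign belonged to transcripts without a call. *BAR1* was at -0.015 with upper-quartile scaling, at -0.015 with limma on TPM and at -0.32 with the replicate block. *CDC6* was at -0.017 with upper-quartile scaling, *INO80* at 0.055 with library totals and at 0.31 with limma on TPM, *ARP8* at 0.18 and *PRI1* at 0.18 with limma on TPM. With 1 library left out, the log2 fold change ran from -1.63 to 0.90 for *BAR1*, from -0.10 to 0.31 for *CDC6*, from -0.32 to 0.25 for *INO80*, from -0.36 to 0.023 for *ARP8* and from -0.32 to 0.024 for *PRI1*. For pheromone genes it ran from -0.20 to 2.17 for *FUS1*, from -0.54 to 0.76 for *SST2*, from -0.17 to 0.44 for *STE12*, from -2.01 to 0.60 for *FAR1*, from -1.58 to 0.063 for *STE6*, from -1.10 to 0.31 for *FUS3*, from -1.06 to 0.26 for *GPA1* and from -1.19 to 0.48 for *MFA1*. For histones it ran from -1.94 to 0.36 for *HTA1*, from -2.27 to 0.021 for *HHT1*, from -1.34 to 0.22 for *HHT2*, from -2.84 to 0.13 for *HHF1* and from -1.66 to 0.32 for *HHF2*. It ran from -0.10 to 2.0 for *SLT2* and from -1.01 to 0.24 for *MCM7*.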
